A study of Mus musculus with 8 samples.

Results

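The collagen chains are the genes whose symbols read Col, a type number, the letter a and a chain number, taken from both deposited count tables. They were 44 of 23420 entries, and 26 of them reached a mean of 10 counts over the 8 libraries and were tested. The libraries came from NIH3T3, a mouse embryonic fibroblast line. Cells carrying RPRD1B shRNA (knockdown) were compared with cells carrying scrambled shRNA, with 4 libraries each, deposited as a table of replicates 1 and 2 of both (set 1) and a table of replicates 3 and 4 of both (set 2). The labels name no clone and do not give the shRNA's sequence. All cells, scrambled ones included, had been kept in puromycin for at least 1 week before RNA was taken from the bulk culture and sequenced in paired reads of 75 bases. RPRD1B binds the carboxy-terminal domain of RNA polymerase II, and the question put to the collagen genes is which of them differed when it was reduced.

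Collagens are secreted proteins of 3 polypeptide chains wound into a triple helix, a shape that needs a glycine repeated at a fixed spacing along each chain. Fibroblasts build fibrils mainly of types I, III and V, a beaded filament of type VI beside them, and some of the type IV network found in basement membranes. The chains are made in the endoplasmic reticulum, hydroxylated, folded, secreted, trimmed and then crosslinked outside the cell.

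The glycine repeat was looked for in the longest protein-coding transcript of each gene (GENCODE M21, GRCm38) as a check that the symbols name collagen chains. The 9 tested fibrillar chains had runs of 217 to 344 glycine codons in frame, each followed by a pair of other codons, the 3 tested type VI chains 45 to 87, and the 4 tested type IV chains 40 to 66. Exons of 54 bases made up 41.2% to 54.1% of the coding exons of the fibrillar genes and 6.98% to 8.57% of those of the type VI genes, while the 4 tested genes of the fibril-associated class spanned 6.15% to 44.4%, with Col22a1 inside the fibrillar range. One such exon is shown for Col3a1, a chain that rose, for the type I chain whose fibrils it joins, and for a type VI chain that fell, with the glycine codons in capitals. They are exon 26 of 51 of Col3a1 (chr1:45334761-45334814, plus strand), exon 26 of 51 of Col1a1 (chr11:94944355-94944408, plus strand) and exon 14 of 35 of Col6a1 (chr10:76718059-76718112, minus strand), each with 6 glycine codons among 18.
Col3a1: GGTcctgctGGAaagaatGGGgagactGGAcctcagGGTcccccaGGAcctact
Col1a1: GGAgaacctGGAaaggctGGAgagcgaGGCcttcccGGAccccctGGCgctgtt
Col6a1: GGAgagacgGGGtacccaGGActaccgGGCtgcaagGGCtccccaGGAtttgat

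The libraries held 12311442 to 23223139 counts, and the ribosomal RNA precursor entry Rn45s took 4.99% to 9.98% of them. Rprd1b itself stood at 26.4, 28, 22.5 and 22.7 counts scaled to library size (CPM, counts per 1000000 counts) in the knockdown replicates 1 to 4, against 42.3, 44.4, 39.5 and 40.8 CPM in the scrambled replicates 1 to 4. Its fitted change was -0.75 ± 0.07 on the log2 scale (SE; edgeR adjusted p = 4.14e-14), or -40.5%, and the exact within-set permutation p of 0.0556 (two-sided) is the smallest that the 36 possible assignments give. Of 12 fibroblast markers, which include Col1a1, Col1a2 and Col3a1, 11 were abundant enough to test, and 4 were called higher and 1 lower. The 12 markers summed to 16383 to 16784 CPM in knockdown libraries and 16329 to 16850 CPM in scrambled libraries. Markers of adipocytes, muscle, epithelium and endothelium each summed to below 1 CPM in every library, macrophage markers to 5.85 to 7.65 CPM in knockdown and 5.41 to 10.8 CPM in scrambled libraries, and osteoblast markers, nearly all from Runx2, to 104 to 222 CPM in knockdown and 101 to 228 CPM in scrambled libraries. Sets differed widely, with 65.9% of entries called between set 2 and set 1, so every change below comes from a fit with a set term unless a set is named.

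The 44 collagen genes together took 0.581%, 0.575%, 0.6% and 0.605% of counts in knockdown replicates 1 to 4, against 0.578%, 0.576%, 0.622% and 0.629% in scrambled replicates 1 to 4. By this share the groups overlapped in set 1, and in set 2 both knockdown libraries were lower. On the TMM scale used for all other levels the sum was 5764, 5762, 5947 and 6119 CPM in knockdown replicates 1 to 4, against 5875, 5916, 6037 and 6229 CPM in scrambled replicates 1 to 4, and there both knockdown libraries were lower in set 1 while set 2 overlapped. The order of the groups in the collagen total thus depended on the scaling. The type I chains Col1a1 and Col1a2 gave 59.3% to 61.6% of these collagen counts in knockdown libraries and 57.5% to 60.8% in scrambled libraries. Per kilobase of transcript, Col1a2 was highest, at 459 ± 6.77 CPM per kb in knockdown and 465 ± 20.1 CPM per kb in scrambled libraries (SD, n = 4 each). Col1a1 came next at 187 ± 21.7 CPM per kb in knockdown and 180 ± 13.9 CPM per kb in scrambled libraries, followed by Col6a1 at 68.6 ± 5.2 and 80.3 ± 4.35 CPM per kb in the same order of groups. Between Col6a2 and Col4a1 the levels ran closely together, from 46.7 to 25.4 CPM per kb in knockdown libraries and from 54.9 to 27.7 CPM per kb in scrambled libraries, and Col3a1 lay at 29.4 ± 1.24 CPM per kb in knockdown and 21.4 ± 0.836 CPM per kb in scrambled libraries. Another 10 tested chains, Col27a1, Col20a1, Col28a1, Col17a1, Col5a3, Col10a1, Col7a1, Col11a2, Col18a1 and Col22a1, were below 1 CPM per kb in both groups.

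**Figure D1:**
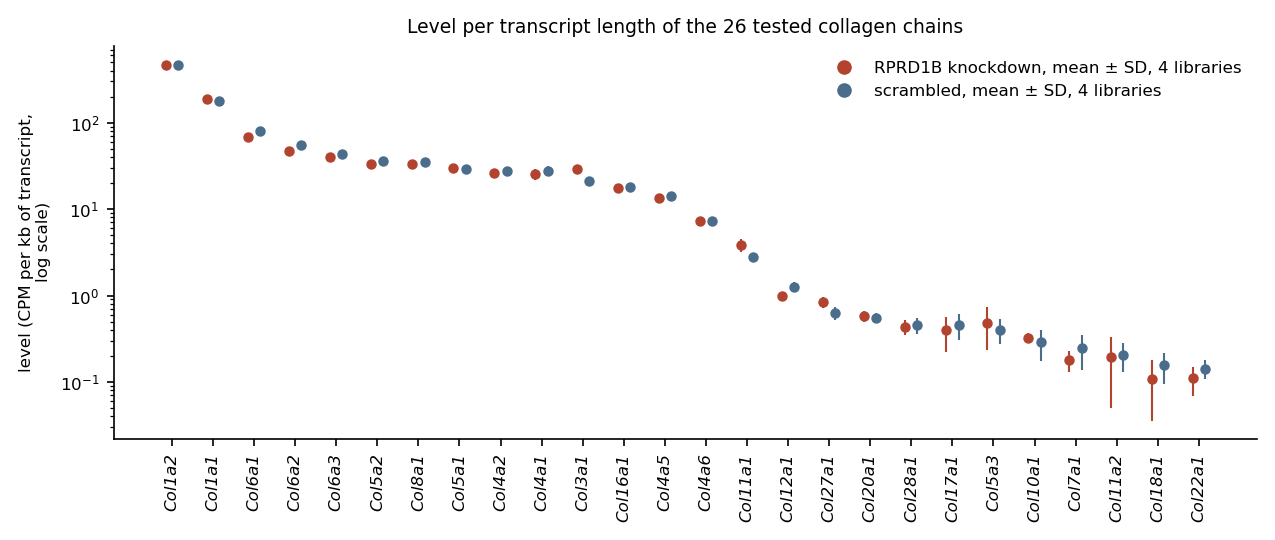
Mean level per kilobase of transcript (CPM per kb, log axis) of the 26 tested collagen chains, with RPRD1B knockdown left of scrambled and bars of 1 SD over 4 libraries. The chains span from 459 CPM per kb for Col1a2 down to 0.108 CPM per kb for Col18a1 in knockdown libraries, and Col3a1 stands at 29.4 CPM per kb in knockdown and 21.4 CPM per kb in scrambled libraries.

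Within this total, 8 of the 26 tested chains changed: Col3a1 and Col11a1 rose, and Col6a1, Col6a2, Col6a3, Col5a2, Col4a1 and Col12a1 fell (edgeR quasi-likelihood test, adjusted p under 0.05). That is 30.8% of the tested chains, where 7.57% of all 11723 tested entries were called, 3.97% higher and 3.61% lower. Abundant entries were called more often, and within those with a mean of at least 1000 counts 6 of 13 collagen chains were called (46.2%) beside 12.3% of all such entries. Below that mean the shares were 2 of 13 chains (15.4%) and 5.8% of entries. The median change of the 26 chains was -0.06 on the log2 scale, with 17 below 0 and 9 above, and that of all tested entries was 0.00. Set by set, all 8 called chains kept their sign, and Col3a1, Col11a1, Col6a1 and Col6a2 passed also when any 1 library was left out. Without the set term Col3a1 alone passed (edgeR adjusted p = 0.0403). In bulk RNA, fewer cells making a transcript and less of it per cell cannot be told apart, and the labels do not say whether replicates are separate cultures, so these p-values measure the spread between libraries, which may be technical.

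**Figure D2:**
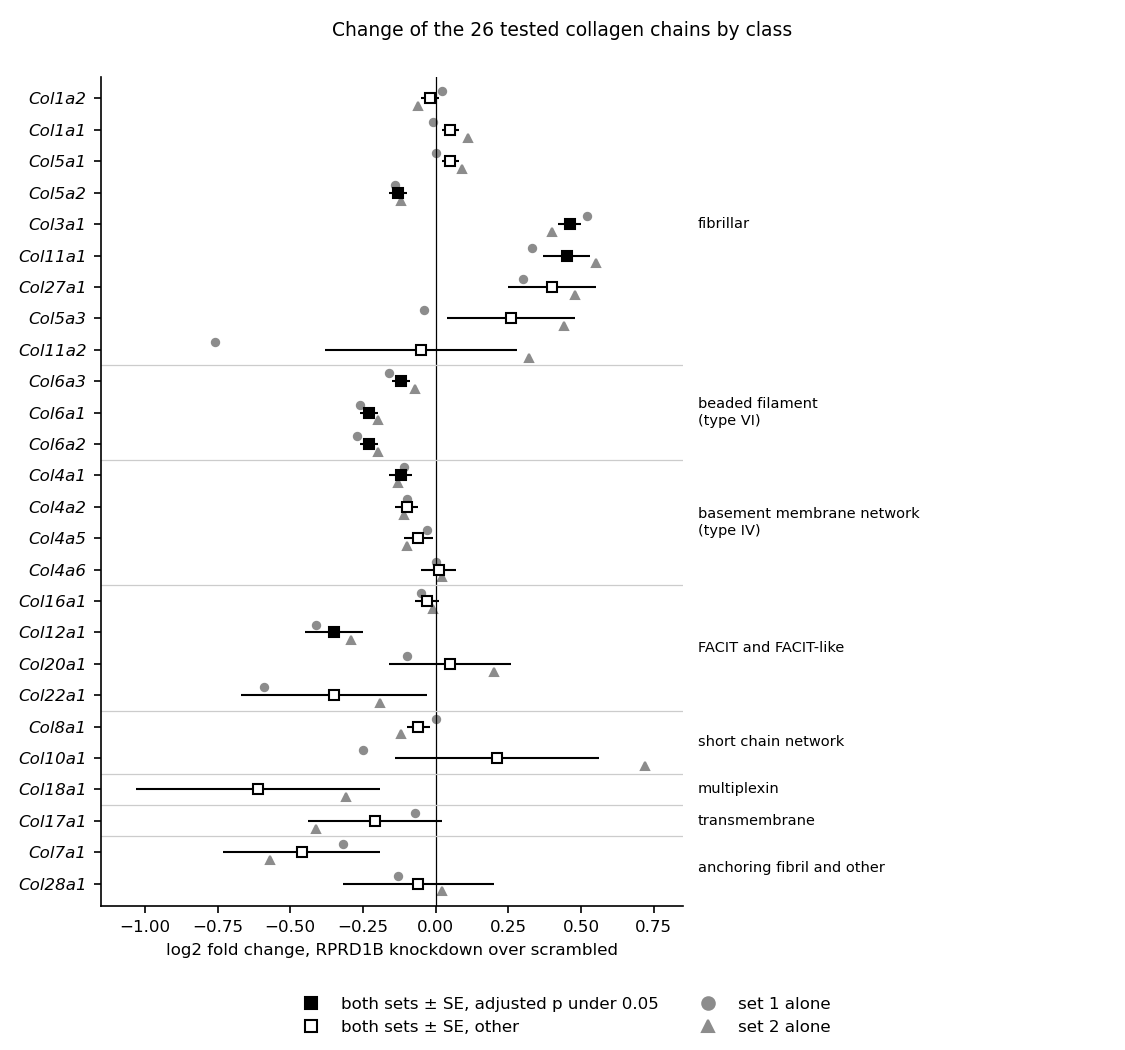
Log2 fold change of RPRD1B knockdown over scrambled for the 26 tested collagen chains, grouped by class, with squares and SE bars for the fit over both sets and grey symbols for each set alone (Col18a1 was tested in set 2 only). Filled squares passed an adjusted p of 0.05: Col3a1 and Col11a1 lie to the right of 0, and the 3 type VI chains, Col5a2, Col4a1 and Col12a1 to the left.

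Among the 11 fibrillar chains, 9 were tested, 2 rose and 1 fell, with a median change of 0.05. Col3a1 encodes the single chain of type III collagen, which forms thin fibrils with type I (chromosome 1, 45311538 to 45349706, GRCm38). Its level was 169, 170, 160 and 156 CPM in knockdown replicates 1 to 4, against 117, 119, 114 and 125 CPM in scrambled replicates 1 to 4. Every knockdown library lay above every scrambled library, and the groups did not come near each other. The change was 37.5%, and the sets alone gave 0.52 (set 1, edgeR adjusted p = 5.13e-15) and 0.40 (set 2, edgeR adjusted p = 1.21e-11). Groups separated this fully in 4 of 26 chains (15.4%), Col11a1, Col6a2 and Col12a1 being the others, and in 3.75% of all tested entries.

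Col11a1 encodes a chain of type XI collagen, which sits in the core of thin fibrils and is best known from cartilage (chromosome 3, 114030479 to 114220756). Its level was 24.8, 25.9, 32.1 and 35.2 CPM in knockdown replicates 1 to 4, against 21.5, 18.9, 23.5 and 22.6 CPM in scrambled replicates 1 to 4. All knockdown libraries were higher, with the set 2 knockdown libraries the highest. The change over both sets was 0.45 ± 0.08 (SE; edgeR adjusted p = 1.2e-05), or 36.5%; set 2 alone passed (0.55, adjusted p = 4.68e-06), and set 1 alone gave 0.33 with an adjusted p of 0.0644. The test of the difference between the sets gave an adjusted p of 0.698. Of 7 chondrocyte markers Sox9 alone was tested and was higher in the knockdown (0.13 ± 0.03, edgeR adjusted p = 0.00796). In set 1 its groups overlapped, at 420 and 441 CPM in knockdown and 381 and 426 CPM in scrambled libraries. Matn1 and Hapln1 were at 0 throughout, and Acan, Comp, Matn3 and Col2a1 reached at most 0.366 CPM. The marker list, nearly all from Sox9, summed to 190 to 442 CPM in knockdown and 167 to 426 CPM in scrambled libraries. The part of Sox9 in the Col11a1 change was not tested.

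Col5a2, a chain of type V collagen, which starts and limits the growth of type I fibrils, fell. Its level was 238, 232, 201 and 205 CPM in knockdown replicates 1 to 4, against 263, 257, 223 and 217 CPM in scrambled replicates 1 to 4. Within each set both knockdown libraries were lower, while the sets themselves lay further apart than the groups. The change was -0.13 ± 0.03 (SE; edgeR adjusted p = 0.00905), or -8.49%, and without knockdown replicate 2 the adjusted p was 0.0542. In the mouse genome Col5a2 is the neighbour of Col3a1: 24624 bases and no protein-coding gene lie between them on chromosome 1, on opposite strands, and they moved in opposite directions.

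The type I chains did not pass the test. Col1a2 had 2429, 2423, 2473 and 2499 CPM in knockdown replicates 1 to 4, against 2384, 2411, 2549 and 2607 CPM in scrambled replicates 1 to 4. Its change was -0.02 with a 95% interval of -0.07 to 0.04 (edgeR adjusted p = 0.798). Col1a1 had 990, 1004, 1191 and 1243 CPM in knockdown replicates 1 to 4, against 993, 1021, 1073 and 1180 CPM in scrambled replicates 1 to 4. Here the groups were mixed in set 1, while both knockdown libraries of set 2 were above both scrambled ones. The change over both sets was 0.05, with an interval of -0.01 to 0.11 (edgeR adjusted p = 0.418), and the set 2 value of 0.11 had an adjusted p of 0.0569. Col5a1, the partner of Col5a2 in type V, gave 0.05 with an interval of -0.02 to 0.11. Col27a1, a fibrillar chain with a shorter, interrupted helix, had 5.48, 5.79, 6.85 and 7.37 CPM in knockdown replicates, against 5.35, 3.8, 5.64 and 4.46 CPM in scrambled replicates. It was higher within both sets, and its change of 0.40 ± 0.15 did not pass (edgeR adjusted p = 0.0944). The rare Col5a3 (0.26 ± 0.22) and Col11a2 (-0.05 ± 0.33) had errors about as large as or larger than their changes.

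Ratios of levels per kb within each library set the fibrillar chains against each other. The ratio of Col3a1 to Col5a2 was 0.846, 0.873, 0.946 and 0.906 in knockdown replicates 1 to 4, against 0.532, 0.554, 0.61 and 0.688 in scrambled replicates 1 to 4. The groups did not overlap, and the log2 difference was 0.66 in set 1 and 0.51 in set 2. Col3a1 to Col1a1 also separated all libraries, at 0.182, 0.181, 0.143 and 0.134 in knockdown replicates and 0.126, 0.125, 0.113 and 0.113 in scrambled replicates. Col11a1 to Col5a1, from types XI and V, which can share a molecule, stood at 0.113, 0.113, 0.14 and 0.149 in knockdown replicates and 0.0958, 0.0837, 0.109 and 0.102 in scrambled replicates, again without overlap. Col5a1 to Col5a2, the partners in type V, stood at 0.798, 0.856, 0.987 and 0.996 in knockdown replicates and 0.74, 0.762, 0.837 and 0.883 in scrambled replicates. Here the knockdown was higher within each set, while the groups overlapped across sets. These ratios were described and not tested. They come from the same library levels as the changes of the single chains, so they give those changes no separate support.

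**Figure D3:**
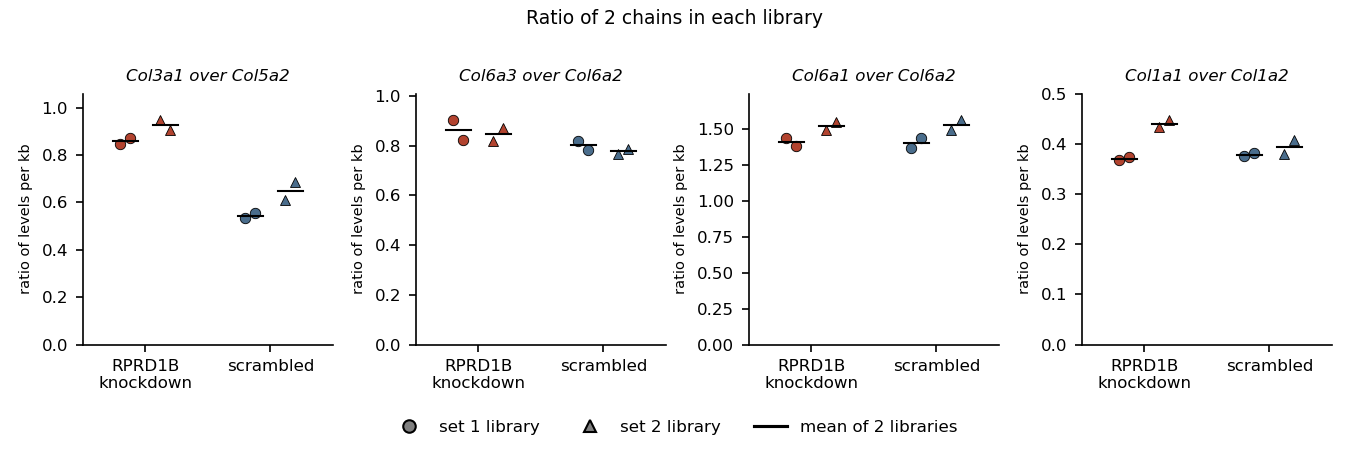
Ratio of levels per kb of 2 collagen chains in each library, RPRD1B knockdown left of scrambled, with circles for set 1, triangles for set 2 and a line at the mean of 2 libraries. Col3a1 over Col5a2 and Col6a3 over Col6a2 are higher in all knockdown libraries, Col6a1 over Col6a2 overlaps between groups, and Col1a1 over Col1a2 is higher in the knockdown in set 2 and lower in set 1.

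Of the type VI chains, Col6a1 and Col6a2 moved together, and Col6a3 fell less. Of 6 genes 3 were tested, and all 3 fell, with a median of -0.23; type VI collagen is a heterotrimer of the chains of Col6a1, Col6a2 and a larger partner, here Col6a3, and forms filaments next to cells. Summed over the class, levels were 874, 876, 898 and 960 CPM in knockdown replicates 1 to 4, against 1020, 1017, 1012 and 1043 CPM in scrambled replicates 1 to 4. All knockdown libraries were below all scrambled libraries.

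Col6a2 was 207, 218, 219 and 225 CPM in knockdown replicates 1 to 4, against 256, 256, 254 and 255 CPM in scrambled replicates 1 to 4 (chromosome 10, 76595756 to 76623630). The scrambled libraries were within a narrow band, and every knockdown library lay below it. Its change was -14.9%, and the sets alone gave -0.27 (set 1, edgeR adjusted p = 1.28e-05) and -0.20 (set 2, edgeR adjusted p = 0.000572). Col6a1, at chromosome 10, 76708792 to 76726044, had 263, 266, 289 and 308 CPM in knockdown replicates 1 to 4, against 308, 325, 335 and 350 CPM in scrambled replicates 1 to 4. Both sets separated, but the highest knockdown library reached the lowest scrambled one, which is from the other set. Its change was -14.6%, and on the log2 scale set 1 gave -0.26 (edgeR adjusted p = 1.24e-05), set 2 -0.20 (edgeR adjusted p = 0.00023). The ratio of the chains, Col6a1 to Col6a2, was 1.44, 1.38, 1.49 and 1.55 in knockdown replicates and 1.37, 1.44, 1.49 and 1.56 in scrambled replicates, with full overlap.

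Col6a3 fell less. It had 405, 391, 390 and 426 CPM in knockdown replicates 1 to 4, against 455, 436, 423 and 437 CPM in scrambled replicates 1 to 4 (chromosome 1, 90766860 to 90844001). In set 1 the groups separated, and in set 2 they overlapped. The change over both sets was -0.12 ± 0.03 (SE; edgeR adjusted p = 0.0146), set 1 giving -0.16 (adjusted p = 0.0105) and set 2 giving -0.07 (adjusted p = 0.348), and the difference between sets had an adjusted p of 0.706. Without knockdown replicate 2, knockdown replicate 3 or scrambled replicate 1 the adjusted p was 0.0799 to 0.109. DESeq2 did not call Col6a3 in set 1 alone. Col6a3 to Col6a2 stood at 0.902, 0.825, 0.82 and 0.872 in knockdown replicates and 0.82, 0.782, 0.766 and 0.788 in scrambled replicates, with all knockdown libraries higher before rounding. The genes for the alternative partners, Col6a4, Col6a5 and Col6a6, had at most 4 counts in any library.

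**Figure D4:**
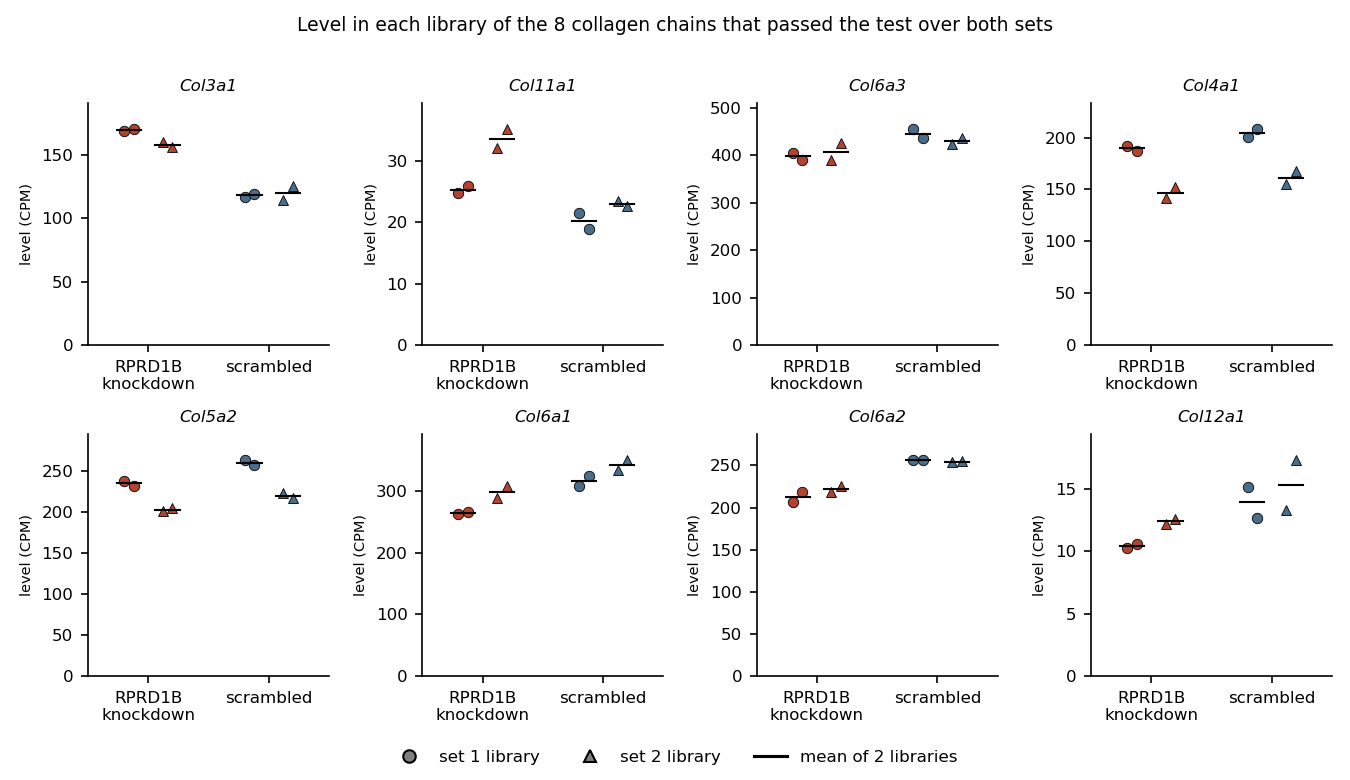
Level (CPM) in each library of the 8 collagen chains that passed the test over both sets, RPRD1B knockdown left of scrambled, with circles for set 1, triangles for set 2 and lines at the mean of each set. Col3a1 and Col11a1 are higher in every knockdown library, Col6a2 and Col12a1 lower in every one, and Col5a2 and Col4a1 differ more between sets than between groups.

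Col6a1 and Col6a2 are neighbours on chromosome 10, 85161 bases apart with no protein-coding gene between them. The 250 bases before the start of each are shown because these genes fell together, beside those of Col3a1, which rose (RefSeq, GRCm38.p6, 5′ to 3′ on the gene's strand). Capitals mark matches, on either strand, to 3 motifs: the CCAAT box (spelled CCAAT), the GC box (spelled GGGCGG) and the TATA box (spelled TATAAA). The positions are chr1:45311288-45311537 on the plus strand for Col3a1, chr10:76726045-76726294 on the minus strand for Col6a1 and chr10:76623631-76623880 on the minus strand for Col6a2.
Col3a1: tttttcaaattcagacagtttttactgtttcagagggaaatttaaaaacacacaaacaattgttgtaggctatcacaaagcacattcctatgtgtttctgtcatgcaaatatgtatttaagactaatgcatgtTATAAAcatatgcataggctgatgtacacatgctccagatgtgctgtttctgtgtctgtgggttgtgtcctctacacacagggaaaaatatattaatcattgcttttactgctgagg
Col6a1: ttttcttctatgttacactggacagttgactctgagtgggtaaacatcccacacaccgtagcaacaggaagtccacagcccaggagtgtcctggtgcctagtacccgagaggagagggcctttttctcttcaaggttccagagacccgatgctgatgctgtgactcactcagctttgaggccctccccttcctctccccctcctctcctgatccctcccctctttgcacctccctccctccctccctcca
Col6a2: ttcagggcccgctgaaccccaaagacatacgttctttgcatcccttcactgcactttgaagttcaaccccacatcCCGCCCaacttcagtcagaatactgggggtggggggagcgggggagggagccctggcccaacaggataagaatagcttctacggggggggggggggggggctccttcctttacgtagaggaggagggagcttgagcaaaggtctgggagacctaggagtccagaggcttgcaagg
The Col3a1 window held 1 TATAAA and had a GC content of 35.2%, the Col6a2 window shown held 1 GGGCGG (read as CCGCCC) at 59.2% GC, and the Col6a1 window held none of the 3 at 56% GC, so no matches overlapped in them. RefSeq gives Col6a2 a second start inside the gene, and the window before it, not shown, held 3 GGGCGG matches. The window of Col11a1, which also rose, is not shown and held 1 CCAAT, 2 GGGCGG and 0 TATAAA matches. Matches are by spelling alone, and their distance from the start was not weighed. TATAAA was found in 12.4% of all 32851 windows of this length and in 4 of 24 windows of tested collagen chains (16.7%), and GGGCGG in 32.7% of all windows and 15 of 24 (62.5%). CCAAT was in 33.8% of all windows and 10 of 24 (41.7%). The 24 windows belong to 22 of the 26 tested chains. The 32851 windows were not limited to tested entries, so these shares compare unlike sets of genes.

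Of the 6 type IV chains, which form the sheet of the basement membrane, 4 were tested and 1 fell, with a median of -0.08. Col4a1 had 192, 187, 142 and 152 CPM in knockdown replicates 1 to 4, against 201, 208, 155 and 168 CPM in scrambled replicates 1 to 4. Knockdown libraries were lower within each set, by less than the gap between the sets. The change was -0.12 ± 0.04 (SE; edgeR adjusted p = 0.0322). It did not pass by DESeq2 (adjusted p = 0.0668) or without any one of knockdown replicates 2 and 3 and scrambled replicates 2 and 4 (edgeR adjusted p = 0.0803 to 0.186). Its partner Col4a2 had 175, 167, 168 and 160 CPM in knockdown replicates 1 to 4, against 182, 185, 179 and 173 CPM in scrambled replicates 1 to 4, lower within both sets, at -0.10 ± 0.04 (edgeR adjusted p = 0.0646). Col4a1 and Col4a2 lie head to head on chromosome 8 and overlap by 85 bases on opposite strands; the labels do not say that counting used strand, so reads there cannot be assigned to one of them. The X-linked pair gave -0.06 for Col4a5 (interval -0.15 to 0.03) and 0.01 for Col4a6 (interval -0.11 to 0.13), and neither passed.

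Of the 9 chains that decorate or link fibrils (the FACIT class and its relatives), 4 were tested and Col12a1 fell, with a class median of -0.19. Type XII collagen, its product, lies on the surface of type I fibrils. Col12a1 had 10.3, 10.6, 12.2 and 12.6 CPM in knockdown replicates 1 to 4, against 15.2, 12.7, 13.3 and 17.3 CPM in scrambled replicates 1 to 4. All knockdown libraries were below all scrambled ones, narrowly in the closest pair. The change was -0.35 ± 0.10 (SE; edgeR adjusted p = 0.0238), or -21.5%, while neither set alone passed (adjusted p = 0.0892 in set 1 and 0.264 in set 2). It was not called by DESeq2 (adjusted p = 0.087) or without knockdown replicate 1 or 2 or scrambled replicate 1 or 4 (edgeR adjusted p = 0.0613 to 0.159). Col16a1, a more abundant chain of the class, gave -0.03 (interval -0.11 to 0.06), and the rare Col20a1 and Col22a1 gave 0.05 ± 0.21 and -0.35 ± 0.32.

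None of the 6 remaining tested chains passed in edgeR, at an unadjusted p under 0.05 (0 of 6) or in DESeq2 (0 of 6). Col8a1, a short chain that forms hexagonal networks and the one abundant member here, gave -0.06 with an interval of -0.13 to 0.01. Col10a1, the hypertrophic cartilage chain, gave 0.21 ± 0.35; the transmembrane Col17a1 of hemidesmosomes -0.21 ± 0.23; Col7a1 of anchoring fibrils -0.46 ± 0.27; Col28a1 -0.06 ± 0.26; and Col18a1, whose product carries endostatin, -0.61 ± 0.42. Col10a1 and Col18a1 stayed at 0.351 to 1.32 CPM, and the other 3 at 1.19 to 3.77 CPM. In position Col10a1 overlaps the protein-coding gene Nt5dc1, and whether some of its few reads came from that gene was not tested.

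A further 18 chains stayed under the mean of 10 counts over the 8 libraries. Col9a3 came nearest, with 4 to 13 counts in each library; it passed the filter in set 2 alone, where its change was 0.69 ± 0.61 (SE; edgeR adjusted p = 0.643). Col4a3 reached 12 counts in 1 library. The others with any count were Col14a1, Col25a1, Col4a4, Col15a1, Col6a6, Col23a1, Col9a2, Col2a1, Col8a2, Col24a1, Col6a5, Col19a1 and Col6a4, with 0 to 6 counts per library. Col9a1, Col13a1 and Col26a1 were at 0 in all 8 libraries, where 3 counts, the limit that a count of 0 allows, equal 0.131 to 0.242 CPM. Among these is Col2a1, the main fibrillar chain of cartilage, with 0 to 2 counts.

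Within single sets the chains called were fewer. In set 1 they were Col3a1, Col6a1, Col6a2 and Col6a3, 4 of 25 tested (16%, where 4.86% of all entries were called). In set 2 they were Col3a1, Col11a1, Col6a1 and Col6a2, 4 of 27 (14.8%, background 5.19%). The authors' deposited tables, from the same libraries, list 25 chains for each set. They call the same chains at a q-value under 0.05, among them Col3a1 at 0.52 in set 1 (q = 4.09e-19) and 0.39 in set 2 (q = 9.6e-07). The DESeq2 test run here called 3 chains in set 1, without Col6a3, and the same 4 in set 2. No chain of 26 differed in its knockdown change between sets by edgeR (background 0.247%), 1 chain, Col1a1, had an unadjusted p under 0.05, and DESeq2 called 0. Groups lay apart in the same direction within both sets in 9 of 26 chains (34.6%, where 16.4% of all tested entries did so), namely 7 of the 8 called chains, all but Col6a3, and also Col4a2 and Col27a1.

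The sets themselves differed in 10 of 26 chains (38.5%, below the 65.9% of all entries). Higher in set 2 than in set 1 were 7, against 33% of all entries, namely Col1a1, Col1a2, Col6a1, Col16a1, Col11a1, Col5a3 and Col11a2, and lower were 3, against 32.9% of all entries, namely Col4a1, Col5a2 and Col17a1. Col4a1 differed by -0.35 ± 0.04 between sets (set 2 over set 1, SE; edgeR adjusted p = 4.43e-13) and Col5a2 by -0.22 ± 0.03 (edgeR adjusted p = 2.73e-08), both larger in size than their knockdown changes. For Col3a1 the difference between sets was -0.05 (edgeR adjusted p = 0.29). No label names the difference between the sets.

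The genes that modify, secrete, bind and degrade collagen were listed by role, and 14 of the 94 tested passed (14.9%, beside 7.57% of all entries), 6 higher and 8 lower. The list was not split by abundance, and 12.3% of all entries with a mean of at least 1000 counts were called. By role, 41.7% of fibril-binding genes, 22.2% for degradation, 20% for crosslinking, 15.4% for hydroxylation and glycosylation and 11.1% of receptors were called. Folding and secretion (7.69%) and regulation of collagen genes (7.41%) lay near the share of all entries. Of 13 genes for hydroxylation and glycosylation 2 fell: P4hb, the protein disulfide isomerase that is a subunit of prolyl 4-hydroxylase (-0.19 ± 0.03, edgeR adjusted p = 4.62e-06), and P4ha2, one of its catalytic subunits (-0.19 ± 0.05, adjusted p = 0.00401). P4hb had 798, 758, 969 and 929 CPM in knockdown replicates 1 to 4, against 864, 843, 1123 and 1118 CPM in scrambled replicates 1 to 4, lower within each set. Of 13 for folding and secretion 1 fell, Sparc, a collagen-binding matrix protein (-0.16 ± 0.03, edgeR adjusted p = 0.000117).

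Of 5 crosslinking genes 1 fell: Lox, the lysyl oxidase that starts crosslinks, was 2351, 2472, 2039 and 2170 CPM in knockdown replicates 1 to 4, against 2734, 2682, 2471 and 2429 CPM in scrambled replicates 1 to 4. Its groups separated within each set, at -0.19 ± 0.03 (SE; edgeR adjusted p = 7.37e-07). None of 6 genes for propeptide removal passed by edgeR or DESeq2, and 1 had an unadjusted p under 0.05. Of 9 receptors 1 fell, the collagen receptor tyrosine kinase Ddr2 (-0.10 ± 0.03, edgeR adjusted p = 0.0373), a call lost without any one of replicates 2, 3 and 4 of either group (adjusted p = 0.0667 to 0.173).

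Of 12 fibril-binding proteins 3 rose and 2 fell. Dcn, a small proteoglycan on fibrils, had 142, 158, 132 and 138 CPM in knockdown replicates 1 to 4, against 43.7, 47.5, 58.9 and 51.9 CPM in scrambled replicates 1 to 4. Its log2 change was 1.72 in set 1 and 1.28 in set 2. Its relative Bgn went the other way (-0.15 ± 0.03, edgeR adjusted p = 9.83e-05), while Ogn (0.38 ± 0.09, adjusted p = 0.00256) and Thbs2 (0.13 ± 0.03, adjusted p = 0.00973) rose. The second that fell was Thbs1, named after its values were seen (-0.16 ± 0.04, edgeR adjusted p = 0.0263), a call lost without knockdown replicate 1 or 4 or scrambled replicate 1 or 4 (adjusted p = 0.0699 to 0.191). For Thbs1 set 1 alone gave -0.06 (edgeR adjusted p = 0.481) and set 2 alone -0.26 (adjusted p = 1.75e-10). The difference between sets had an edgeR adjusted p of 0.155. Thbs2 was not called without knockdown replicate 1, knockdown replicate 2 or scrambled replicate 1 (edgeR adjusted p = 0.0628 to 0.0927). For Thbs2 set 1 alone gave 0.22 (edgeR adjusted p = 0.00031) and set 2 alone 0.04 (adjusted p = 0.713). The difference between sets had an edgeR adjusted p of 0.308. Of 9 genes for degradation 2 rose, the lysosomal proteases Ctsl and Ctsb. Ctsl had 1144, 1112, 1289 and 1295 CPM in knockdown replicates 1 to 4, against 920, 929, 1153 and 1138 CPM in scrambled replicates 1 to 4, higher within each set (0.23 ± 0.03, edgeR adjusted p = 1.26e-08). Ctsb gave 0.12 ± 0.03 (edgeR adjusted p = 0.0171), a call lost without knockdown replicate 1 or 4 or scrambled replicate 1 or 3 (adjusted p = 0.0532 to 0.0701). Of 27 genes that regulate collagen genes 2 were called (7.41%, near the 7.57% of all entries). Sox9 rose and Ctgf, a matrix signalling protein, fell (-0.14 ± 0.03, edgeR adjusted p = 0.00298). Without scrambled replicate 1 the edgeR adjusted p was 0.0713 for Sox9 and 0.0561 for Ctgf.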

How the data were processed

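Total RNA of cultured cells was used and cDNA was primed with random hexamers, per the labels' protocols. The authors deposited raw counts per gene for 8 libraries in 2 tables; the submitters' processing notes name the mm10 build, and no aligner or counter. The authors' deposited comparison tables hold a mean count (a normalised signal), a log2 fold change and a q-value per gene, used only where named. All 8 count columns were used, and 27 entries carry date-like names. The collagen chains, their classes and the pathway list were chosen with earlier results of these data known.

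Counts were tested with edgeR 4.0.16 (R 4.3.3, limma 3.58.1): TMM scaling, entries with a mean count of at least 10, a robust quasi-likelihood F test with set and group terms, and Benjamini-Hochberg adjustment over all entries tested, called at 0.05. Each set was also fitted alone, and the set by group interaction over both. SE is the size of the log2 change divided by the root of F, and intervals are 1.96 SE either way. CPM are TMM-scaled; levels per kb divide by the longest protein-coding transcript. The tests were tried on simulated counts. The limit for a count of 0 covers counting error only. Alternatives were DESeq2 1.42.0 as a test and for size factors, upper-quartile scaling, other filters, no set term, a replicate block and leaving out each library. All 26 tested chains are named; chains called for the knockdown over both sets or in either set are given by library, and so are Col1a1, Col1a2, Col4a2 and Col27a1, chosen after their values were seen; of the pathway genes the called ones were named, up to 4 per role by p.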

Additional observations from a re-analysis of the deposited data

Results flagged for a closer look

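Col18a1 in knockdown replicate 3 stood at 1.21 CPM (15 counts), far from the other 3 knockdown libraries at 0.351 to 0.46 CPM (5 to 9 counts). Col7a1 in scrambled replicate 4 stood at 3.77 CPM (49 counts), far from the other 3 scrambled libraries at 1.65 to 1.83 CPM (25 to 28 counts). In each case the gap to the nearest library took 0.873 and 0.913 of the whole range of the 4 libraries, past the 95% limit for 4 values; 80 groups of 4 were examined, and chance alone marks about 1 in 20 such groups.

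The change of Dcn differed between sets: it was 1.28 in set 2 and 1.72 in set 1, an interaction of -0.44 ± 0.09 (SE, log2; edgeR adjusted p = 0.0145), with all knockdown libraries above all scrambled ones in both sets. The ratio of Col1a1 to Col1a2 went opposite ways: knockdown minus scrambled was 0.16 on the log2 scale in set 2 and -0.03 in set 1, with no overlap of libraries within either set. This difference between the ratios was not tested; for Col1a1 alone the interaction had an adjusted p of 0.481 in edgeR.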

How the results depend on the processing

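The 8 collagen calls were 8 with DESeq2 size factors, no filter or a mean count of at least 50, 9 with upper-quartile scaling (Col4a2 added, adjusted p = 0.0471) and 6 by DESeq2. Without the set term 1 chain (Col3a1) and 1 pathway gene were called, beside 18 of all entries; by class this left 1 fibrillar chain and 0 of type VI, type IV and the FACIT class. DESeq2 called 0 chains of type IV and 0 of the FACIT class, and upper-quartile scaling 2 of type IV. Over all entries DESeq2 called 128 in set 1 (563 by edgeR), 167 in set 2 (611) and 9 for the difference between sets (29), which was 50 with no filter. Leaving out 1 library gave 4 to 8 collagen calls over both sets, 1 to 5 in set 1, 0 to 1 in type IV and 0 to 1 in the FACIT class; over all entries it gave 113 to 571 in set 1, 273 to 355 in set 2 and 7 to 53 for the difference between sets. Only uncalled chains changed sign when a library was left out, with ranges of -0.03 to 0.43 for Col10a1, -0.59 to 0.16 for Col11a2, -0.03 to 0.16 for Col20a1, -0.19 to 0.07 for Col28a1 and -0.04 to 0.06 for Col4a6. The cause was not tested. The replicate block kept 8 collagen calls over both sets, with 846 calls over all entries against 888 without it, 655 in set 1 and 509 in set 2. Deviations of same-numbered libraries correlated at 0.0208 in set 1 and -0.045 in set 2. With so few libraries per set this cannot settle whether the numbers mark a shared culture, which the labels do not say. A mean under 10 counts left 18 chains out of the fit over both sets.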

Other observations

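The changes of the 8 called collagen chains were also set against the other genes of their chromosomes, and none changed sign. The median change of tested entries was -0.03 to 0.04 over the chromosomes that carry a tested collagen chain. The difference from the median of the chain's own chromosome was 0.49 for Col3a1, 0.46 for Col11a1, -0.26 for Col6a1 and -0.27 for Col6a2 on the log2 scale. It was -0.09 for Col6a3 (-0.12 before), -0.10 for Col5a2 (-0.13 before), -0.13 for Col4a1 and -0.34 for Col12a1.

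Apart from the collagens, 4 fibroblast markers were called: Pdgfra, a receptor for platelet-derived growth factor (0.37, edgeR adjusted p = 5.55e-11), Vim, an intermediate filament protein (0.12, adjusted p = 0.00258), and Dcn were higher in the knockdown, and Pdgfrb was lower (-0.16, adjusted p = 0.0092). Fap, a protease of activated fibroblasts, had at most 1 count in a library.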
